A study of Homo sapiens with 12 samples.

Results

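Binding of hnRNPK to chromatin, measured by sequencing of immunoprecipitated DNA (ChIP-seq), was compared between HCT116 cells that overexpressed the long noncoding RNA CRLM1 and HCT116 cells that carried an antisense construct. HCT116 is an established human colorectal carcinoma line. Cells of both groups also overexpressed hnRNPK, so neither group shows hnRNPK at its native level. Each group had 2 biological replicates, and the authors called peaks in each immunoprecipitated (IP) library against its own input library. CRLM1 was expressed from the cloned full-length cDNA, and the sequence carried by the antisense construct was not described further in the sources used here. The comparison used 4 of the 6 peak lists of the series, those of CRLM1-OE replicates 1 and 2 and of the antisense control (antisense 1 and 2). The empty control lists were left aside, so that every class below is relative to the antisense construct. The 4 lists used held 11988 peaks on chromosomes 1 to 22, X and Y. The question was which genes carried an hnRNPK peak with CRLM1-OE and not with the antisense construct, which showed the opposite, and which carried a peak in both groups.

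hnRNPK is a nuclear protein that binds single-stranded, C-rich DNA and RNA through its KH domains. It takes part in transcription, splicing, RNA export and translation, and in the p53 response it acts as a partner of p53 at target promoters. Many long noncoding RNAs (lncRNAs) bind hnRNPK, which can be directed to or held at chromatin in this way. CRLM1 is annotated as LINC01767 in the current genome.

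A peak was assigned to each gene whose body, or whose 5 kb before the transcription start site (TSS), it met by at least 1 base, after the study's annotation rule. A TSS is the 5′ end of a gene record. By this rule 421 genes met peaks of both CRLM1-OE lists and of neither antisense list. These CRLM1-OE-only genes made up 0.672% of 62663 annotated genes. The reverse class, with a peak in both antisense lists and in neither CRLM1-OE list, held 110 genes or 0.176%. A further 78 genes, or 0.124%, carried a peak in all 4 lists. Among the 20033 protein-coding genes the same classes held 295 genes (1.47%), 64 genes (0.319%) and 50 genes (0.25%). The remaining genes with a peak in both lists of a group, 211 for CRLM1-OE and 92 for the antisense control, also had a peak in 1 list of the other group. A gene in no list is a gene without a called peak, which does not show that hnRNPK was absent from it. The lists come without read counts, so sequencing depth is unknown.

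The class sizes moved with the lengths of the lists. The CRLM1-OE lists held 4339 and 3163 peaks and the antisense lists 2262 and 2224 peaks. When each list was reduced to its 2000 highest-scoring peaks, 216 genes were CRLM1-OE only and 125 were antisense only. Rules that tie a gene to a position lowered both counts, and that of the antisense-only genes by the larger factor. When the peaks of the class's lists had to share at least 1 base at the gene, 156 CRLM1-OE-only genes and 11 antisense-only genes were left. When a peak had to touch the interval within 1 kb of the TSS, the classes held 101 genes (0.161% of all genes) and 4 genes (0.00638%), and 10 genes (0.016%) had such a peak in all 4 lists.

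**Figure D1:**
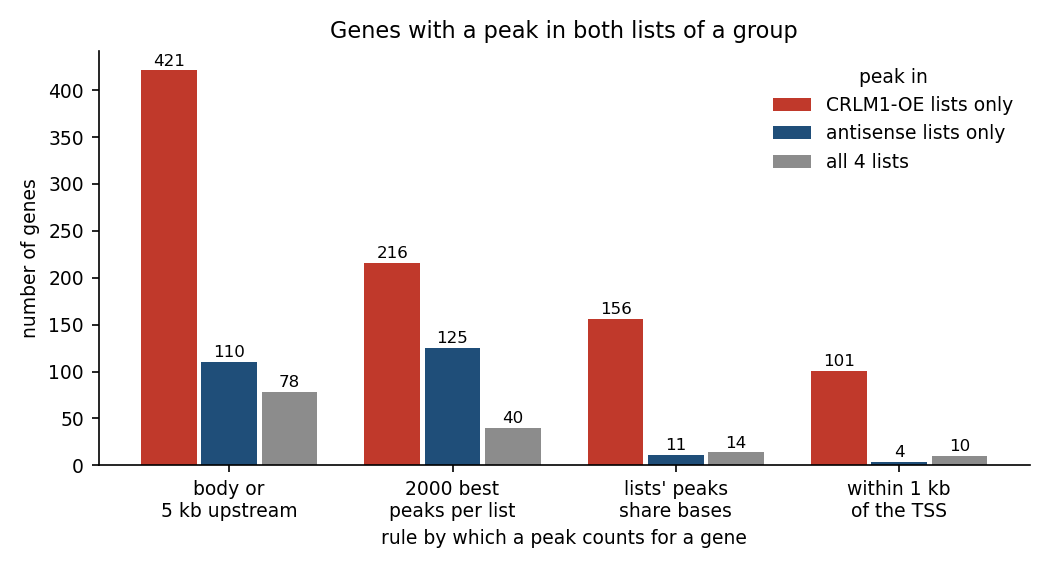
Number of genes (vertical axis) with a peak in both CRLM1-OE lists only, both antisense lists only, or all 4 lists, under 4 rules for counting a peak to a gene (horizontal axis). CRLM1-OE-only genes outnumber antisense-only genes under each rule, from 216 against 125 with 2000 peaks per list to 101 against 4 within 1 kb of the TSS.

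The places where the peaks of a class coincided are called sites here. The 156 CRLM1-OE-only genes lay at 81 sites, the 11 antisense-only genes at 7 sites, and 14 of the genes in all 4 lists at 7 sites. The sequences below show 100 bases at the middle of the stretch shared by the peaks, for sites from each class, and were chosen because they hold the C-rich hexamer CCTCCC or its reverse complement GGGAGG. Capitals mark the hexamer on either strand. All are from the plus strand of GRCh38. The first 3 belong to CRLM1-OE-only genes. KLF6 encodes a zinc-finger transcription factor of the growth response, and its site at chr10:3786039-3786138 lay in an intron of an unnamed gene upstream of KLF6. CCN1 encodes a secreted matrix protein induced by serum, and its site at chr1:85581132-85581231 lay in an exon of CCN1. SAE1, a subunit of the SUMO-activating enzyme, and ZC3H4 share the site at chr19:47112620-47112719, which lay in an intron.
KLF6: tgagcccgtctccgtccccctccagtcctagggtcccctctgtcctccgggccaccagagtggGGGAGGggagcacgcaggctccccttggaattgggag
CCN1: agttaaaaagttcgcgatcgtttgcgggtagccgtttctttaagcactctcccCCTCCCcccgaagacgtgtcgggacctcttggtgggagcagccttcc
SAE1 and ZC3H4: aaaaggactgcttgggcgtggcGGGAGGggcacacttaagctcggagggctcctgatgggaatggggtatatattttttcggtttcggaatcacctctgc
The next belongs to the antisense-only gene ZNF467, a zinc-finger gene, at chr7:149772515-149772614 in its intron.
ZNF467: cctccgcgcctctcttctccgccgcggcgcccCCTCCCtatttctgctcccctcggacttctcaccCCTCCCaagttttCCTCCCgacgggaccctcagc
The last 3 carried a peak in all 4 lists. The site of BBC3, the p53 target gene that encodes the pro-apoptotic protein PUMA, lay in a coding exon at chr19:47226606-47226705. The site of CD68, a macrophage and lysosomal glycoprotein gene, lay in an exon at chr17:7579693-7579792. The site of PLXNB2, a semaphorin receptor gene, lay between genes at chr22:50307872-50307971.
BBC3: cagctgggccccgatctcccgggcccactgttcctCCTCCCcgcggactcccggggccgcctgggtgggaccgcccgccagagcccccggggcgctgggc
CD68: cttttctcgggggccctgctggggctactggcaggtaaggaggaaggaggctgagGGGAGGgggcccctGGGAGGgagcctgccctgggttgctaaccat
PLXNB2: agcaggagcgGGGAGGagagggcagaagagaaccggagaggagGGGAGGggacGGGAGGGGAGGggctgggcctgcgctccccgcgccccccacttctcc

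Searched over the central 300 bases, 49 of the 81 CRLM1-OE-only sites (60.5%) held CCTCCC on either strand. So did 4 of the 7 antisense-only sites and 7 of the 7 sites in all 4 lists. The hexamer was in 34.8% and 38.6% of all peaks in the CRLM1-OE lists, in 31.7% and 33.0% of those in the antisense lists, and in 49.3% of 35116 RefSeq promoters of the same length. The mean GC content was 59.9% at the CRLM1-OE-only sites, 71.5% at the antisense-only sites, 69.8% at the sites of all 4 lists and 57.5% in the promoters. GC content thus differed between these sets, and its part in the hexamer share was not tested. A match describes the letters in the window and is not a measured hnRNPK contact.

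The CRLM1-OE-only class held 295 protein-coding genes, 92 lncRNA genes (0.488% of all lncRNA genes), 8 pseudogenes, 17 snRNA and snoRNA genes and 6 microRNA genes. The 12 best-ranked sites of the class, ordered by the mean over the lists of the rank of the coinciding peak as a percent of its list, lay at or near TNFRSF12A, SLC5A5, KLF6, FOSL1, GAS2L1, EEF1A1, CIRBP, RNF151 with SNHG9, ARHGDIA, CCN1, TEX2 with SNHG25, and TRIM41. Each of them ranked within the first 185 of 4339 peaks in CRLM1-OE 1 and within the first 73 of 3163 in CRLM1-OE 2. Of the 81 sites, 46 had their middle within 1 kb of the TSS of some gene. The middles fell in an intron at 32 sites, in an untranslated region (UTR) at 18, between genes at 17, in exons that are neither coding nor annotated as UTR at 8 and in a coding exon at 6.

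The named gene is not always the gene under the middle of the site. The top site, named for TNFRSF12A, the receptor of the cytokine TWEAK, reached the 3′ end of that gene while its middle lay in HCFC1R1. It ranked 16 in CRLM1-OE 1 and 3 in CRLM1-OE 2. Antisense list 1 had a peak at rank 70 in HCFC1R1 and THOC6 that overlapped the same site without touching TNFRSF12A. The middle of the FOSL1 site lay in CCDC85B, and FOSL1 encodes a FOS-family subunit of the AP-1 transcription factor. Peaks of both antisense lists, 2 of 2, overlapped the SLC5A5 site, so that region had a peak in all 4 lists. The sites of FOSL1 and RNF151 were each overlapped by a peak of 1 antisense list. In all, 4 of the 81 sites were overlapped by an antisense peak, and 8, these 4 among them, had one within 5 kb. The genes at the 4 sites are therefore CRLM1-OE only by gene and not by region.

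Genes of the translation machinery carried peaks in CRLM1-OE 2 more often than in any other list. Of 163 ribosomal protein and translation factor genes, 19 (11.7%) had a peak in CRLM1-OE 1, 45 (27.6%) in CRLM1-OE 2, 8 (4.91%) in antisense 1 and 6 (3.68%) in antisense 2. The shares for all protein-coding genes were 10.6%, 9.39%, 5.70% and 5.84% in the same order. CRLM1-OE 1 therefore stood near its own background for this group, at 1.098 times, whereas CRLM1-OE 2 stood at 2.94 times. The group had 10 members with a peak in both CRLM1-OE lists and 0 with a peak in both antisense lists. Of the 10, 7 had no antisense peak, or 4.29% of the group against 1.47% of protein-coding genes.

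EEF1A1 encodes the elongation factor that brings aminoacyl-tRNA to the ribosome, and its best peak ranked 56 in CRLM1-OE 1 and 19 in CRLM1-OE 2. EIF1, a factor for start codon selection, had its best peaks at ranks 243 and 210, with midpoints 394 and 424 bp downstream of the TSS. The midpoints of the best peaks thus fell almost at the same place in both replicates. The best peaks of RPL3, a protein of the large ribosomal subunit, ranked 440 and 231. RPS2, a protein of the small subunit, ranked 2858 and 40, and RPL10, another large-subunit protein, ranked 3702 and 38. For both of these the peak was weak in CRLM1-OE 1 and among the best in CRLM1-OE 2. PABPC1, the poly(A)-binding protein, ranked 1582 and 371, and EIF3G, a subunit of the initiation factor eIF3, ranked 2443 and 196. At each of the 7 genes a peak of one CRLM1-OE replicate shared bases with a peak of the other, although at EEF1A1 and RPS2 these were not the best-ranked peak of both.

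Genes for small nucleolar RNAs (snoRNAs), which guide modification and processing of ribosomal RNA, and for spliceosomal RNAs (snRNAs) were counted together. Of 2892 annotated, 42 and 69 carried a peak in the CRLM1-OE lists and 16 and 11 in the antisense lists. Of the 62663 genes of all types, 3348 and 2913 had a peak in the CRLM1-OE lists and 1852 and 1831 in the antisense lists. The share of snoRNA and snRNA genes with a peak was thus below that of all genes in each list. The CRLM1-OE-only class held 17 of the 2892, 15 snoRNA and 2 snRNA genes. This was 0.588%, slightly below the 0.672% over all genes. The antisense-only class had 0, and the class of all 4 lists had 1, the pseudogene RNU5E-4P. The rule of 1 kb around the TSS uses the same window for short and long genes. By it 21 of the 2892 were CRLM1-OE only, or 0.726%, above the 0.161% over all genes. The antisense-only class then had 0 and the class of all 4 lists 2. The part of gene length in the shares by the first rule was not tested. The 17 genes lay at 10 sites, since neighbouring snoRNAs shared a peak. Of the 17, 16 lay inside another gene on the same strand, and for 15 of them a gene around them was itself CRLM1-OE only. SNORA10 and SNORA64 lie in RPS2, SNORD43 and SNORD83A in RPL3, SNORA78 in SNHG9, SNORD60 in SNHG19, and SNORD104 and SNORA50C in SNHG25. SNORA48, SNORD10 and SNORA67 lie in EIF4A1, the helicase subunit of the cap-binding complex. The rule counted the readthrough gene SENP3-EIF4A1 as CRLM1-OE only here, and EIF4A1 itself was CRLM1-OE only under the rule of 1 kb around the TSS. The snRNA genes were RNU5F-1, a U5 gene, and RNU4ATAC, the U4atac RNA of the minor spliceosome. RMRP, the RNA of the ribonuclease MRP, shared a CRLM1-OE-only site with CCDC107. Reads from a snoRNA gene and from its host cannot be told apart in these lists.

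RNA-binding protein genes had more peaks in both CRLM1-OE lists than in either antisense list. Of 73 genes for hnRNPs, SR proteins and other splicing regulators, 13 (17.8%) and 17 (23.3%) had a peak in the CRLM1-OE lists, and 4 (5.48%) and 5 (6.85%) in the antisense lists. Relative to all protein-coding genes of the same list these shares were 1.68 and 2.48 times against 0.961 and 1.17 times. Of the 73 genes, 4 were CRLM1-OE only (5.48%, against 1.47% of protein-coding genes). CIRBP, the cold-inducible RNA-binding protein, ranked 25 in CRLM1-OE 1 and 73 in CRLM1-OE 2, with midpoints 1055 and 928 bp downstream of its TSS. PCBP2, a poly(C)-binding protein with KH domains like those of hnRNPK, ranked 61 and 270 within 831 bp downstream of its TSS. PCBP4, of the same family, ranked 433 and 1424, and its peaks lay 64 bp apart without sharing a base. SRSF2, an SR splicing factor, ranked 1138 and 596 with peaks 1221 bp apart. HNRNPK itself had a peak in CRLM1-OE 2 alone.

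Immediate-early and growth-response genes, which are transcribed rapidly after serum or stress, had the highest share in both CRLM1-OE lists among the gene groups not taken from the study. Of 55 such genes, 11 and 21 (38.2%) had a peak in the CRLM1-OE lists and 6 (10.9%) and 3 (5.45%) in the antisense lists. Relative to the protein-coding background, CRLM1-OE 1 at 1.89 times lay just below antisense 1 at 1.91 times, so the groups overlapped on that scale. There were 7 CRLM1-OE-only genes in the group, or 12.7%, against 1.47% of protein-coding genes. KLF6 and ZFP36, among these 7, also belong to the genes that the study discusses. KLF6 ranked 22 and 47, with peak midpoints at -808 and -1142 bp from its TSS, where negative values are upstream. CCN1 ranked 113 and 30, with midpoints 421 and 553 bp downstream of the TSS. FOSL1 ranked 48 and 46. PPP1R15A, a stress-induced regulatory subunit of protein phosphatase 1, ranked 90 and 127 with peaks 2135 bp apart.
ZFP36 and ZFP36L1, which bind AU-rich elements and promote mRNA decay, ranked 1171 and 13, and 165 and 936. The ZFP36L1 peaks lay 2538 bp apart. KLF2, a zinc-finger factor like KLF6, ranked 3862 and 1984. Its peaks were thus weak, but their midpoints fell at -141 and -137 bp from the TSS.

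**Figure D2:**
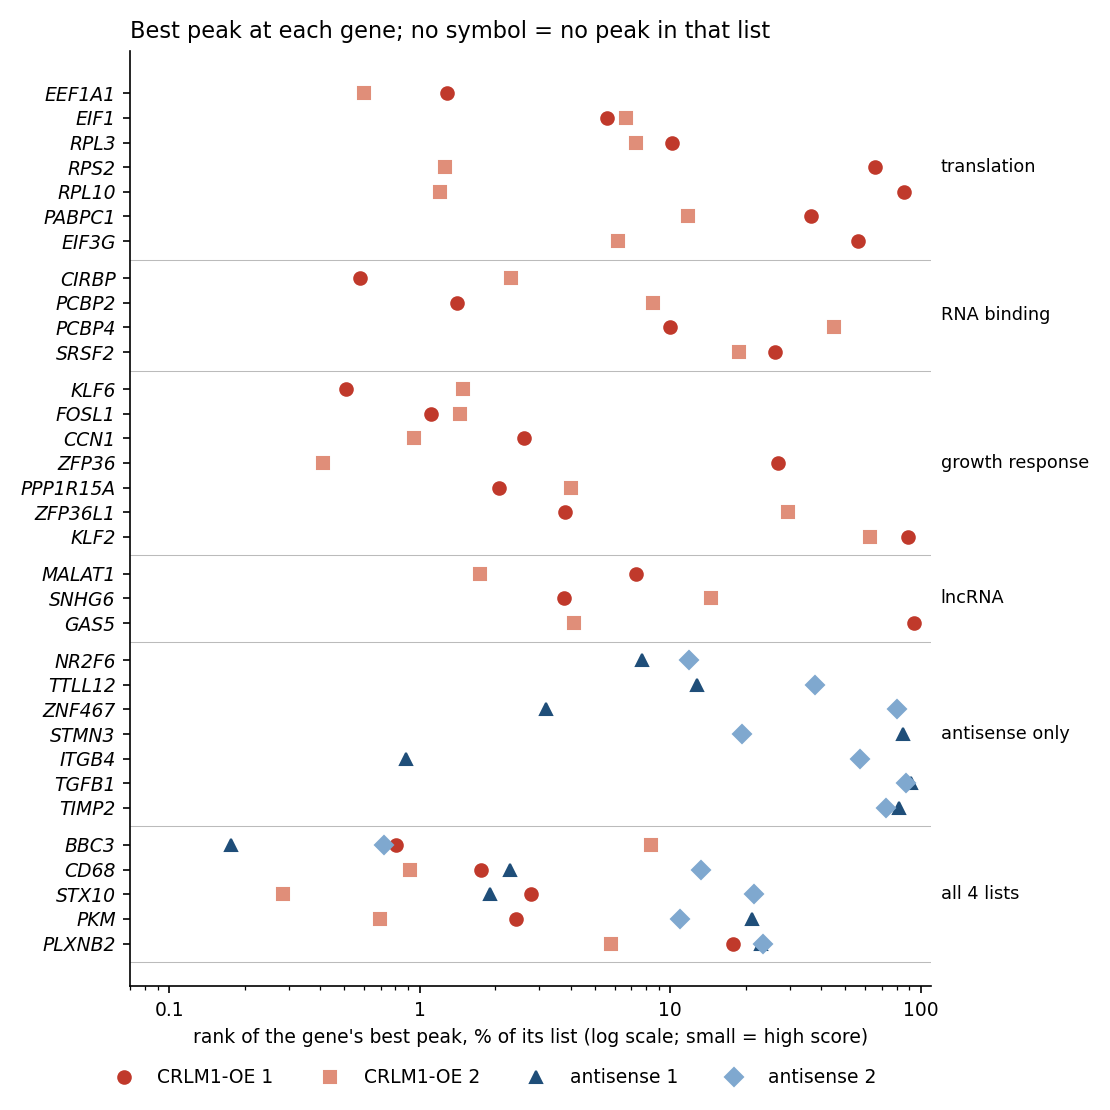
Rank of the best peak at each named gene as a percent of its list, on a log scale where a small value is a high score, for the 2 CRLM1-OE and 2 antisense lists. Several genes, such as RPL10, GAS5 and ZNF467, were near the top of 1 replicate and near the bottom of the other, whereas KLF6, FOSL1 and CD68 were within the first 13.2% of each list that held them.

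Among 36 lncRNAs known from the nucleus or from colorectal cancer, 7 (19.4%) and 12 (33.3%) had a peak in the CRLM1-OE lists and 3 (8.33%) and 1 (2.78%) in the antisense lists. Of all lncRNA genes, 5.15% and 4.09% had a peak in the CRLM1-OE lists and 2.92% and 2.87% in the antisense lists. The CRLM1-OE-only members were 3 of 36 (8.33%), against 0.488% of all lncRNA genes. GAS5, a snoRNA host gene, was CRLM1-OE only and ranked 4071 and 131. SNHG6, another snoRNA host, ranked 164 and 459 with peaks 2432 bp apart. MALAT1, an abundant RNA of nuclear speckles, ranked 316 and 55 with peaks 354 bp apart. LINC01767, the gene of CRLM1, carried peaks in CRLM1-OE 2 and in none of the other 3 lists. These peaks were 478 and 356 bp wide, and 72.8% and 100% of their bases lay in annotated exons. Of the HNRNPK peak in the same list, 46.5% of the bases were exonic. The part of the constructs' own cDNA in these peaks was not tested.

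The 13 genes that the study discusses were chosen by the authors on these or related samples, so their counts are not independent evidence. Of them, 8 and 9 had a peak in the CRLM1-OE lists and 3 and 1 in the antisense lists. KLF6, TNFRSF12A, ZFP36 and PLEKHG2 were CRLM1-OE only, and ZFP36 and PLEKHG2 were counted from the same peaks. BBC3 carried a peak in all 4 lists. PLPP3, SMURF2 and BMP7 had no peak in any of the 4 lists.

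The antisense-only class was smaller and less tied to positions. It held 64 protein-coding genes, 39 lncRNA genes and 6 pseudogenes. At 99 of its 110 genes the peaks of the antisense replicates did not meet, and the median gap between the closest peaks was 26.5 kb. The best of its 7 sites ranked 18 in antisense 1 and 19 in antisense 2 and lay in TM7SF2. That site was counted for the neighbouring unnamed gene ENSG00000278952, and a CRLM1-OE peak overlapped it. NR2F6, an orphan nuclear receptor, ranked 174 and 264 at a site in a coding exon. TTLL12, of the tubulin tyrosine ligase-like family, ranked 290 and 838, with the middle of the site at -508 bp from its TSS. ZNF467 ranked 72 and 1781, and STMN3, a stathmin that binds tubulin, shared with RTEL1, a DNA helicase of telomeres, a site at ranks 1924 and 430. The other sites belonged to unnamed lncRNA genes.

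From the pathway lists, TGFB1, ITGB4, TIMP2 and ZNF467 were antisense only. TGFB1, the TGF-beta ligand, ranked 2068 and 1934, near the end of both lists, with peaks 12790 bp apart. ITGB4, an integrin of epithelial anchorage, ranked 20 and 1276 with peaks 7241 bp apart. TIMP2, an inhibitor of matrix metalloproteinases, ranked 1850 and 1609 with peaks 71637 bp apart. The antisense lists thus met these 3 genes at different places. Of 61 genes of epithelial-mesenchymal transition, adhesion and invasion, 8 (13.1%) and 5 had a peak in the CRLM1-OE lists and 8 (13.1%) and 8 (13.1%) in the antisense lists. Against the protein-coding background of each list this was 1.24 and 0.873 times with CRLM1-OE and 2.30 and 2.25 times with the antisense construct. The members had a median length of 62.5 kb, against 27.47 kb for all protein-coding genes, and the part of length was not tested. This group was 1 of 2 in which both antisense lists exceeded both CRLM1-OE lists relative to the protein-coding background. The other was the homeobox cluster genes, of which 2 and 0 of 39 had a CRLM1-OE peak and 5 and 3 an antisense peak. These gene counts rest on fewer peaks, because neighbouring homeobox genes shared them. In antisense 1, HOXC4, HOXC5 and HOXC6 shared the peak at rank 1042, and HOXB7 and HOXB8 that at rank 1273. HOXB3 and HOXB4 shared a peak at rank 1199 in antisense 2, and HOXD9 and HOXD10 a peak at rank 2847 in CRLM1-OE 1.

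Of 36 p53 target genes, 7 and 7 had a peak in the CRLM1-OE lists and 2 and 2 in the antisense lists. Relative to the protein-coding share of each list this was 1.83 and 2.07 times with CRLM1-OE and 0.975 and 0.951 times with the antisense construct, without overlap. The CRLM1-OE lists had only FBXW7 and BBC3 of this group in common. FBXW7, a ubiquitin ligase subunit, was CRLM1-OE only, with peaks 106322 bp apart at ranks 3811 and 2026. Of 44 apoptosis regulators, 5 and 7 had a CRLM1-OE peak and 3 and 5 an antisense peak. Relative to the protein-coding share of each list this was 1.07 and 1.695 times with CRLM1-OE and 1.20 and 1.95 times with the antisense construct. Of these regulators, TNFRSF12A was CRLM1-OE only and BBC3 was in all 4 lists. Of 48 TGF-beta and BMP pathway genes, 6 and 7 had a CRLM1-OE peak and 3 and 8 an antisense peak. On the same scale this was 1.18 and 1.55 times against 1.10 and 2.85 times. BMPR1B, a BMP receptor, was CRLM1-OE only at ranks 3939 and 741 with peaks 5369 bp apart. Of 64 Wnt pathway genes, 7 and 5 had a CRLM1-OE peak and 6 and 3 an antisense peak. TCF7L1 was CRLM1-OE only at ranks 1068 and 1157, with peak midpoints at different places, 52214 and 89693 bp downstream of its TSS. The Wnt group stood at 1.03 and 0.83 times with CRLM1-OE against 1.645 and 0.80 times with the antisense construct. Of 508 numbered zinc finger genes, 42 and 26 had a CRLM1-OE peak and 16 and 24 an antisense peak, which was below the protein-coding share in each list, at 0.779, 0.545, 0.553 and 0.809 times. ZNF638, ZNF34 and ZNF544 were CRLM1-OE only (0.591% of the group, against 1.47% of protein-coding genes), and ZNF34 ranked 360 and 24. The peak midpoints of ZNF638 lay 62878 and 65882 bp downstream of its TSS, and those of ZNF544 27448 and 40729 bp.
Of 26 keratin and other epithelial structural genes, 4 and 9 had a CRLM1-OE peak and 2 and 5 an antisense peak. Relative to the protein-coding shares this was 1.45 and 3.69 times against 1.35 and 3.29 times. KRT8, a keratin of simple epithelia, was CRLM1-OE only. Its best peaks, at ranks 701 and 355, lay at 45869 and -63 bp from the TSS, and the CRLM1-OE 2 peak that coincided with the first of them ranked 3143. Of 27 Kruppel-like and SP factors, 3 and 5 had a CRLM1-OE peak and 0 and 2 an antisense peak, with KLF6 and KLF2 CRLM1-OE only. These factors stood at 1.05 and 1.97 times the protein-coding share with CRLM1-OE, against 0 and 1.27 times. Of 90 histone genes, 1 and 4 had a CRLM1-OE peak and 0 and 1 an antisense peak, and none was in a class. The histone genes were below the protein-coding share in each list, at 0.105, 0.474, 0 and 0.190 times. Their median length was 0.5515 kb, against 27.47 kb for all protein-coding genes. Median lengths of the gene groups ran from this value to 62.5 kb in the adhesion group. No group share was adjusted for gene length, and the part of length was not tested. Over the 15 gene groups, both CRLM1-OE lists had a larger share than both antisense lists in 8 groups. After division by each list's share of protein-coding genes this held in 5 groups, and the reverse in 2. Both the 8 and the 5 groups include the 13 genes that the study discusses, which are not independent evidence. All the groups were chosen with earlier results of these data known, and some share members, such as KLF6 and BBC3. The tally therefore describes the lists and is not independent evidence. The lncRNA group, also among the 5, was divided by the protein-coding share and not by the lncRNA share.

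**Figure D3:**
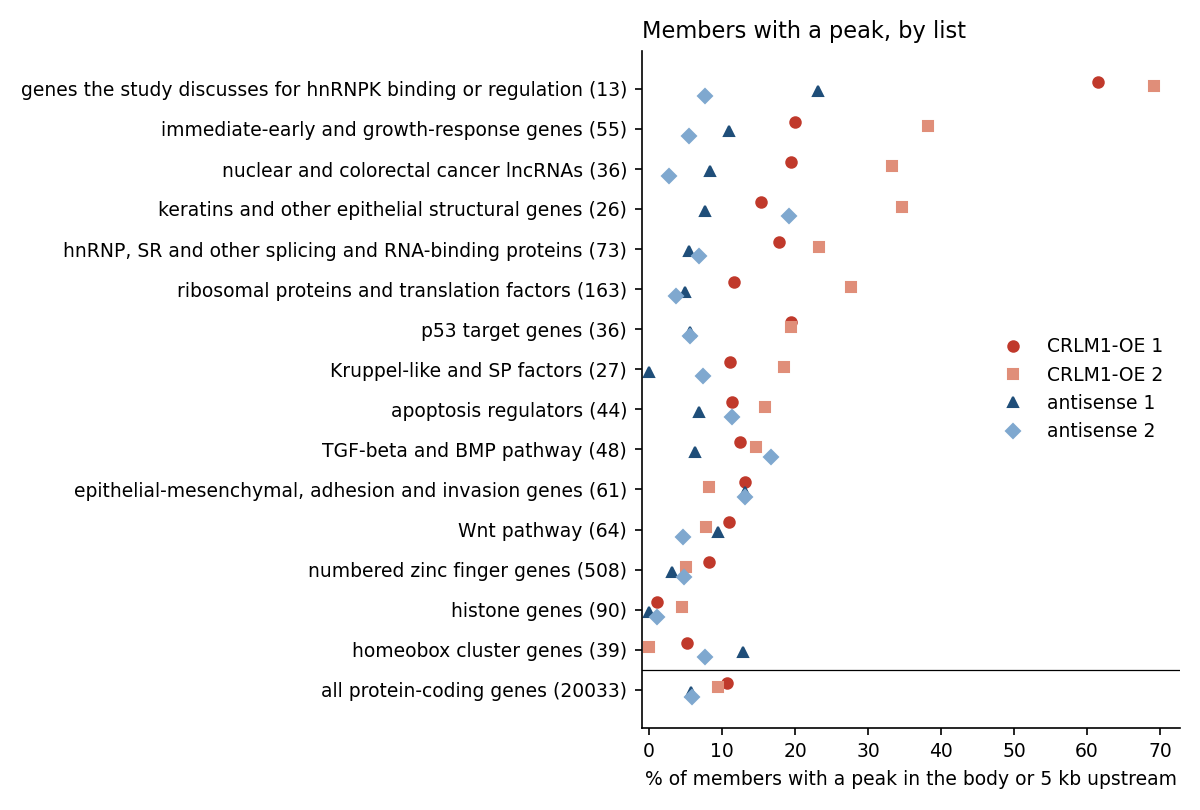
Percent of the members of each gene group (group size in parentheses) with a peak in the body or 5 kb upstream, in the 2 CRLM1-OE and the 2 antisense lists, above the same shares for all protein-coding genes. The CRLM1-OE lists lie to the right for all protein-coding genes. They do so too for several groups, growth-response, RNA-binding and translation genes among them, and not for adhesion or homeobox genes. Relative to the protein-coding shares, CRLM1-OE 1 stood at 1.098 times for translation genes. For growth-response genes it stood at 1.89 times, against 1.91 times in antisense 1.

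The 78 genes in all 4 lists fell into 2 sets. At 14 of them the peaks of the 4 lists shared bases, and these genes had a median length of 6.34 kb. The other 64 had a median length of 525.7 kb and no base shared by peaks of all 4 lists. Among them were PTPRD, MACROD2, PCDH15, NRXN3, RBMS3, LSAMP and CDH13, which span 1174 to 2299 kb. ZNF804B was also among the 64, with best peaks 202000, 373630, 77631 and 73077 bp downstream of its TSS. Not all of the 64 were long. Of protein-coding genes under 10 kb, 5 were in all 4 lists and 3 of these had a shared site. For protein-coding genes of 200 kb and longer, 2.13% were in all 4 lists and 0 of these 32 genes had a shared site.

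The 7 sites in all 4 lists included some of the best-ranked peaks of the series. The first, in the unnamed lncRNA gene ENSG00000285646 with RNU5E-4P, ranked 14 and 1 in the CRLM1-OE lists and 12 and 14 in the antisense lists. BBC3 with MIR3190 and MIR3191 ranked 35 and 266 with CRLM1-OE and 4 and 16 with the antisense construct. As a percent of the list, these ranks at BBC3 were 0.807% and 8.41% with CRLM1-OE and 0.177% and 0.719% with the antisense construct. CD68 with MPDU1 ranked 76 and 29 against 52 and 294. STX10, a Golgi SNARE protein, had its site at -5290 bp from the TSS, at ranks 121 and 9 against 43 and 480. PKM, which encodes pyruvate kinase of glycolysis, ranked 105 and 22 against 477 and 243, so that both CRLM1-OE ranks were better. PLXNB2 ranked 1953 and 435 against 520 and 519. Ranks depend on the number of peaks in a list and were not tested.

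The same division by length ran through the CRLM1-OE-only class. Its 156 genes with a shared site had a median length of 7.31 kb, against 43.9 kb for the whole class. At its other 265 genes the closest peaks of the CRLM1-OE replicates lay a median of 24.6 kb apart, with 61 genes under 5 kb and 88 over 50 kb. Among protein-coding genes shorter than 10 kb, 52 of 5132 (1.01%) were CRLM1-OE only and 40 of the 52 had a shared site. Among those of 200 kb and longer, 81 of 1502 (5.39%) were CRLM1-OE only and 2 of the 81 had a shared site. In the antisense-only class 2 genes under 10 kb and 20 genes of 200 kb and longer were found. The share of genes with a peak also rose with length within each list, in antisense 1 from 2.26% under 10 kb to 21.4% at 200 kb and longer.

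**Figure D4:**
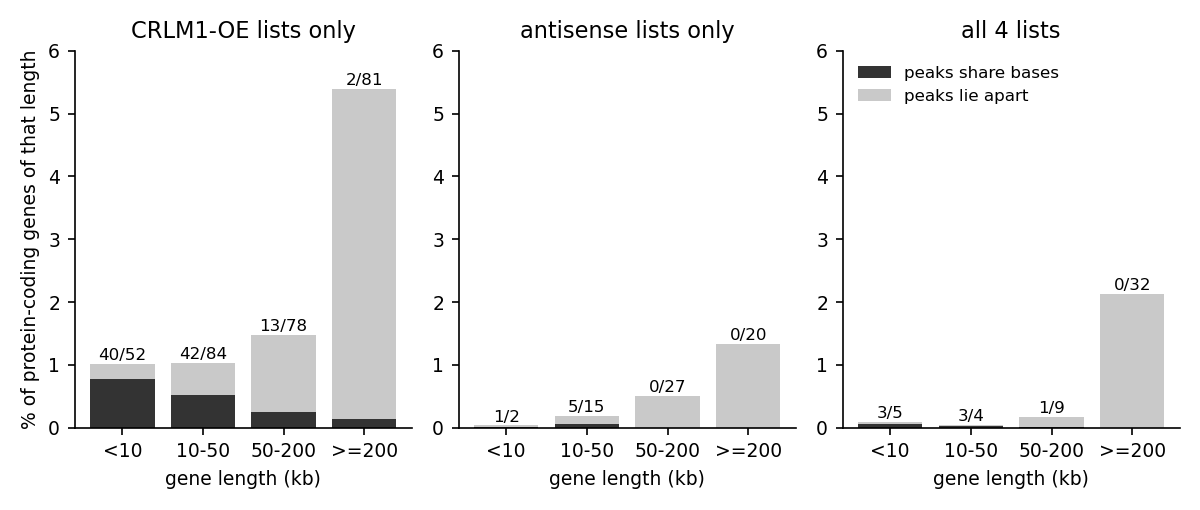
Percent of protein-coding genes in each class (vertical axis) by gene length in kb (horizontal axis), with the genes whose peaks share bases in dark and the others in light grey, and both counts above each bar. Shared sites lie in short genes (40 of 52 CRLM1-OE-only genes under 10 kb), whereas 2 of the 81 longest CRLM1-OE-only genes and 0 of the 32 longest genes in all 4 lists have one.

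At the TSS the classes were most unequal. There were 50 CRLM1-OE-only protein-coding genes by the rule of 1 kb around the TSS (0.25% of protein-coding genes), 2 antisense-only genes (0.00998%) and 4 in all 4 lists (0.02%). Besides the genes above, the 50 included HMGA1, an architectural chromatin protein, NCOA2, a nuclear receptor coactivator, FOXP4, a forkhead factor, INTS6, an Integrator subunit, and SIX5, a homeobox factor. The antisense-only genes were ZNF467 and TTLL12, and those in all 4 lists included CD68, NEK8 and PLXNB2. RefSeq promoters (GRCh38.p14, 250 bases before to 50 after the start) were matched for 34 of the 50 genes, and 20 of the 34 (58.8%) held CCTCCC on either strand, against 49.3% of all promoters. Their mean GC content was 66.9%, against 57.5% for all promoters, and the part of GC in the hexamer share was not tested. The peaks behind the CRLM1-OE-only genes lay within 1 kb of a TSS in 84 of 394 (21.3%) and 108 of 391 (27.6%) cases. Those behind the antisense-only genes did so in 15 of 106 (14.2%) and 12 of 100. Among all peaks the shares were 9.96% and 15.8% with CRLM1-OE and 8.80% and 10.2% with the antisense construct. All peaks include those that met no gene, whereas the class peaks had to meet a gene body or its 5 kb upstream. The 2 classes also differed in median gene length, 43.85 against 116.8 kb. The parts of length and of the assignment rule in these shares were not tested.

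Over the full lists the difference within 1 kb of the TSS rested on CRLM1-OE 2. In the first kb downstream of a TSS lay 6.06% and 9.93% of the CRLM1-OE peak midpoints, and the first kb upstream held 3.90% and 5.91%. Counting both sides, the TSS-proximal share was 3.42 points higher with CRLM1-OE, within the combined replicate SD of 4.27 points (exact permutation p = 0.667, two-sided, n = 2 each). Leaving out CRLM1-OE 2 reduced the difference to 0.477 points. It was 6.35 points with the 2000 highest-scoring peaks per list, 5.205 points with peaks above the median score and 4.846 points within 5 kb of a TSS. In each of these settings both CRLM1-OE lists lay above both antisense lists (exact permutation p = 0.333, two-sided, n = 2 each). Among peaks away from a TSS, CCTCCC was found in 32.3% and 34.0% with CRLM1-OE and in 29.3% and 30.2% with the antisense construct, and GC content was 44.1% and 43.1% against 41.7% and 41.6%. Over all peaks the hexamer share was 36.7% ± 2.73 with CRLM1-OE and 32.4% ± 0.860 with the antisense construct (SD, n = 2 each). The difference was 4.36 points and its combined SD 2.86 points, without overlap of the groups (exact permutation p = 0.333, two-sided, n = 2 each). Mean GC content differed by 2.57 points, with 46.0% ± 0.291 against 43.5% ± 0.0309 (SD, n = 2 each, exact permutation p = 0.333). Of 17 such measures compared, 11 had groups that did not overlap, and the smallest adjusted p (Benjamini-Hochberg over the 17 exact permutation tests) was 0.515. With 2 lists against 2 no test could go below 0.333.

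**Figure D5:**
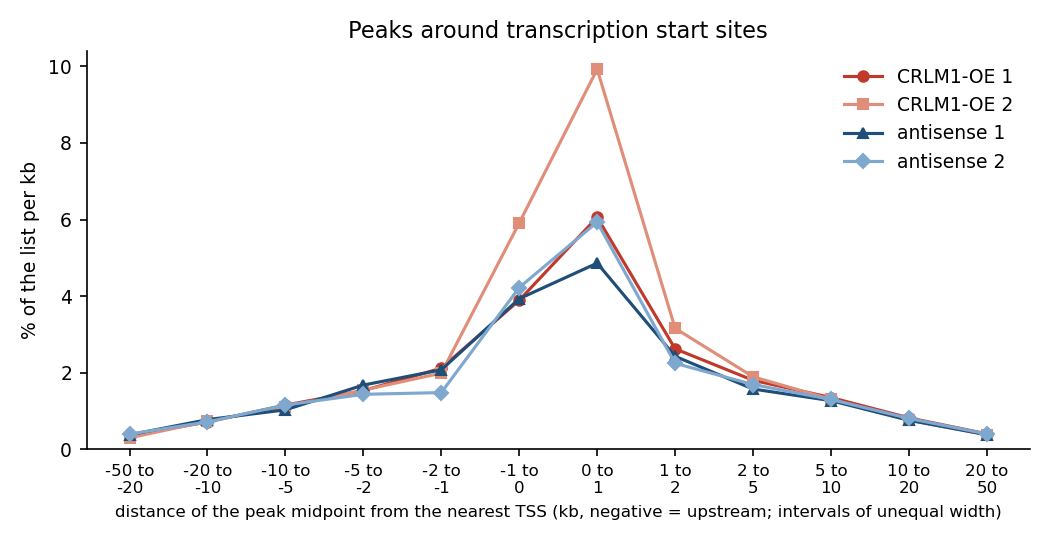
Percent of the peaks of each list per kb (vertical axis) by distance of the peak midpoint from the nearest TSS in kb (horizontal axis, intervals of unequal width, negative values upstream). All 4 lists are highest in the first kb downstream, and CRLM1-OE 2 alone stands above the others there, while CRLM1-OE 1 runs with the antisense lists.

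Counted by region in place of gene, the classes were again unequal. The 4 lists merged into 11571 regions, of which 103 had peaks of both CRLM1-OE lists and no antisense list, 14 had peaks of both antisense lists and no CRLM1-OE list, and 26 had peaks of all 4. Most regions, 11285 or 97.5%, were in 1 list alone. The CRLM1-OE replicates overlapped each other at 4.03% of the peaks of CRLM1-OE 1 and 5.44% of those of CRLM1-OE 2. Each antisense list overlapped a CRLM1-OE list at 3.10% to 3.64% of its peaks and the other, shorter antisense list at 2.25% and 2.29%. The CRLM1-OE lists were the longer ones, and the part of list length in these counts was not tested.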

How the data were processed

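hnRNPK ChIP-seq peak lists of 2 CRLM1-OE and 2 antisense control IP libraries were used, and the lists of the empty control were left aside. The authors used cutadapt for trimming, Bowtie2 for alignment to GRCh38 and MACS2 for peaks, each replicate against its input. The deposited score of each peak, which is 50 or higher throughout, was used only as a rank within its list (rank 1 is the highest score), because its scale is not given in the sources used here. The lists give no read counts, so depth is unknown. The number of unused value columns was 0.

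Genes were the 62663 records of GENCODE release 44 on chromosomes 1 to 22, X and Y, and a TSS was the 5′ end of a gene record. Annotation by the authors can differ. The analysis ran in Python 3.11.15 (pandas 2.3.3, numpy 2.4.6, scipy 1.17.1), with pysam 0.24.0 for sequence. Classes of genes were counted without a test. List measures were compared by an exact permutation test of the 4 lists (two-sided, 6 arrangements). Wilson intervals cover counting error only. Genes were named when they lay at the first 12 CRLM1-OE-only sites or the first 8 sites of the other classes (7 existed in each), ordered by the mean rank as a percent of the list, or belonged to one of 15 gene groups, and when the study discusses them. The long genes, the genes with a peak within 1 kb of the TSS, the small RNA genes and the shown site of SAE1 and ZC3H4 were chosen after their values were seen. Some genes that the rule names are not reported here. The members and gene groups were chosen with earlier results of these data known. The code was tested on simulated lists.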

Additional observations from a re-analysis of the deposited data

How the results depend on the processing

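The number of reads per library is unknown, so peak numbers and absence from a list cannot be scaled to depth, and with 2 lists per group no exact permutation test can fall below 0.333. The CRLM1-OE to antisense ratio of peak numbers was 1.65 and 1.41 to 1.94 without 1 list. The difference in TSS-proximal share was 3.42 points and 0.477 to 6.36 without 1 list, and that in hexamer share was 4.36 points and 2.43 to 6.28. None of these changed direction under the alternatives run. With same-numbered lists taken as pairs (replicate block), the ratio was 1.65 and the TSS difference 3.42 points, with a smallest possible p of 0.5. The numbers are only labels of cultures, and pairing changed no call.

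The gene counts depended on the rule. CRLM1-OE-only, antisense-only and all-4-list genes numbered 421, 110 and 78. They numbered 101, 4 and 10 within 1 kb of the TSS, 156, 11 and 14 where the lists' peaks shared bases, 228, 52 and 30 with peaks above the median score, and 221, 33 and 20 for genes shorter than 50 kb. With 2000 peaks per list they numbered 216, 125 and 40, of which 203, 90 and 40 were in the original classes. With the central 200 bp of each peak they numbered 391, 105 and 74. Leaving out 1 list, so that the other list stood for its group, gave 518 to 2577 CRLM1-OE-only genes, 150 to 1225 antisense-only genes and 118 to 192 genes in all lists left. The highest counts come from asking for 1 list in place of 2. CRLM1-OE-only genes outnumbered antisense-only genes in each of these counts except those without an antisense list.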
